A study of Mus musculus with 6 samples.

Results

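The genes described are 10 of the 19323 in the deposited table: the transcription factor gene Nfe2l2, which encodes NRF2, its inhibitor Keap1, and 8 enzyme genes of the NRF2, glutathione and thioredoxin systems (Nqo1, Gclc, Gclm, Gsr, Txnrd1, Srxn1, Gpx1 and Gpx4). They were taken from a list of names, matched to the table by Ensembl identifier, and all 10 were found and tested. That list was chosen with earlier results of these data known. The samples were RNA of primary CD8+ T cells from spleens of wild-type C57BL/6 mice, which were 6 weeks old when feeding began and were fed for 7 weeks. There were 3 libraries from mice on MCDHFD, the diet that the labels use to model MASH (inflamed fatty liver), and 3 from mice on ND, the diet it is set against. The labels give neither the make-up of the diets nor whether each replicate was a separate animal, so p-values measure the spread between these samples, which may be technical.

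NRF2 is a transcription factor held in the cytoplasm by KEAP1, which delivers it to a CUL3 ubiquitin ligase for degradation. Oxidants and electrophiles modify cysteines of KEAP1, and NRF2 then enters the nucleus, pairs with small MAF proteins and binds antioxidant response elements near its target genes. Those targets make glutathione, keep glutathione and thioredoxin reduced, and supply the NADPH that both systems use. In T cells, glutathione is known to sustain the metabolism that activation requires.

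The antioxidant response element is usually written with the core TGACNNNGC, and a related form has TGAGNNNGC. Both were searched for on both strands in the 250 bases before each RefSeq transcription start (GRCm38.p6), where windows were given for 8 of the 10 genes, 13 windows in all. TGACNNNGC was found before Nfe2l2, Gclm and 1 of 3 starts of Txnrd1, against 10.2% of all 32851 windows, and TGAGNNNGC was found at 2 places before Srxn1, against 14.4% of all windows. No window matched both forms. Of the 13 windows, 3 held the first form and 1 the second. The 4 windows with a match are shown so that the letters can be read. Of the searched genes without a match, Nqo1, Gpx1 and Gpx4 were called higher on MCDHFD and Keap1 lower. No window was given for Gclc or Gsr. Each window is given 5′ to 3′ on the strand of its gene, with the matches in capitals. A match is a description of the letters and not a bound site.
Srxn1, chr2:152105274-152105523, plus strand: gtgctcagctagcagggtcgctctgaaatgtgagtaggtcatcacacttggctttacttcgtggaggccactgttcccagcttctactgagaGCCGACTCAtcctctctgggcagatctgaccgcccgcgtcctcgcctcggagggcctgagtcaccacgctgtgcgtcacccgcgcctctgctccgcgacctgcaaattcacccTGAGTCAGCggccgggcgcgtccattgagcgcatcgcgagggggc
Gclm, chr3:122245307-122245556, plus strand: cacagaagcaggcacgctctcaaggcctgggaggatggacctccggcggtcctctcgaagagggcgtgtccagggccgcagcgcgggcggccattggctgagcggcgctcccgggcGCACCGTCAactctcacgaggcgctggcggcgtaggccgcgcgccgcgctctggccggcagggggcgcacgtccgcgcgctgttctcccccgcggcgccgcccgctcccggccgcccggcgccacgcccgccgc
Txnrd1, chr10:82858956-82859205, plus strand: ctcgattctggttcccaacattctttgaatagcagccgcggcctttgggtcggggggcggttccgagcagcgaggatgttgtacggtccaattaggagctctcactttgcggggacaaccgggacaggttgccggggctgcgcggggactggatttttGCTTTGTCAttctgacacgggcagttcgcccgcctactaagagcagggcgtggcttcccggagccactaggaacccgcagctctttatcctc
Nfe2l2, chr2:75704664-75704913, minus strand: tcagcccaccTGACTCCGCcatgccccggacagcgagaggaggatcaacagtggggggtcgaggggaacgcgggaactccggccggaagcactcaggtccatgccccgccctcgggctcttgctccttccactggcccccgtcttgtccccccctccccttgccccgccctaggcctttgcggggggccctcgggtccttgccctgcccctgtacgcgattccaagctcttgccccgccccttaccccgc
The match of Srxn1 nearest to the start lay 45 to 37 bases before it and read TGAGTCAGC. The match of Gclm, on the opposite strand, lay 134 to 126 bases before its start and read TGACGGTGC. The window of Nfe2l2 carried TGACTCCGC near its far end, 240 to 232 bases before the start. The windows of Keap1, Nqo1, Gpx1 and Gpx4 and the other starts of Txnrd1 did not hold these letters.

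The libraries held between 13188812 and 15482458 reads in the 5 whose values were turned back into whole reads, and values are normalized counts as the authors scaled them. Markers of other cells moved with the diet. The CD8 T cell markers, 15 of 15 lower on MCDHFD, summed to 0.277% to 0.316% of all normalized counts in MCDHFD libraries and 0.624% to 0.635% in ND libraries. All 16 macrophage markers were higher, with sums of 1.44% to 1.73% against 0.332% to 0.397%, and so were all 16 erythroid markers, with sums of 0.107% to 0.18% against 0.0188% to 0.0204%. Of 12 neutrophil markers 11 were higher, with sums of 0.0689% to 0.118% against 0.0109% to 0.0156%. B cell markers (10 of 10) and dendritic cell markers (11 of 12) were lower, with sums of 0.0112% to 0.0142% on MCDHFD against 0.046% to 0.0582% on ND and of 0.181% to 0.188% on MCDHFD against 0.404% to 0.44% on ND. The other dendritic cell marker, Itgax, was higher (log2 fold change 0.22, limma adjusted p = 0.0165). That call was lost without MCDHFD replicate 2 or 3 or ND replicate 3, and with quantile scaling, edgeR or DESeq2. Of tested NK cell markers 2 of 3 were lower, and of CD4 T cell markers 3 of 4. Of 8 tested plasma cell markers 5 were higher and 1 lower. Of 5 tested markers of stroma and endothelium 2 were higher and 0 lower. Across all tested genes, 30.3% were called higher and 28.1% lower. Cd8a averaged 5263.7 ± 458 normalized counts on MCDHFD and 13784 ± 350 on ND, Csf1r 30994 ± 3253 on MCDHFD and 8917.8 ± 669 on ND, and Alas2 825.9 ± 248 on MCDHFD and 113.4 ± 8.61 on ND (SD, n = 3 each). No marker of these lists was at 0 throughout a diet. Macrophages and red cell precursors also express the redox genes described here, and the part of these cells in each result was not tested. In bulk RNA, fewer cells of a type and less RNA per cell cannot be told apart.

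**Figure D1:**
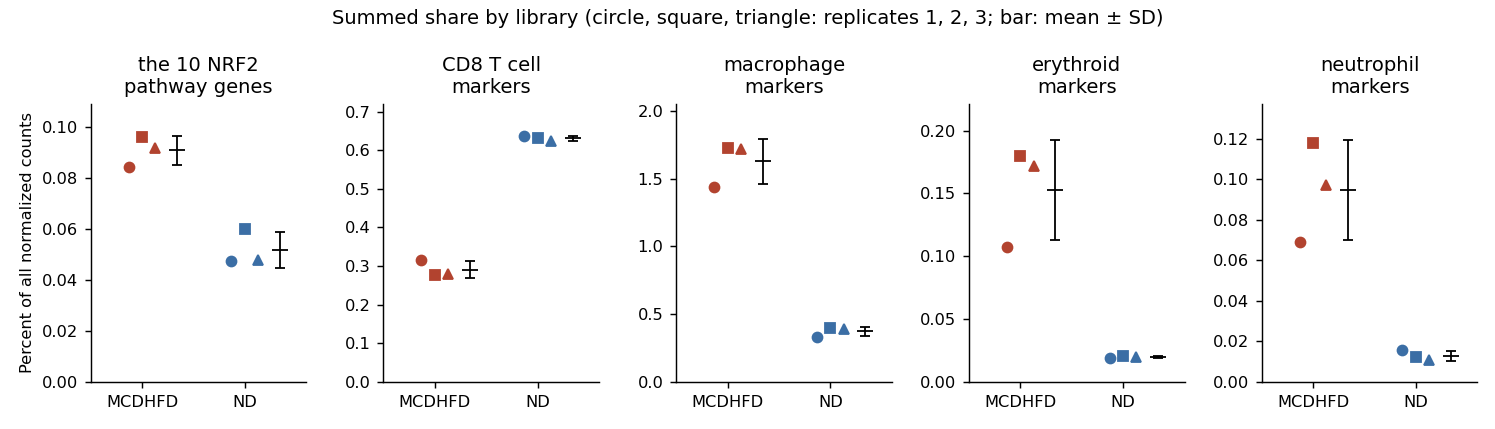
Summed share of all normalized counts (percent, linear axis from 0) for the 10 NRF2 pathway genes and for the markers of 4 cell types. Points are libraries, MCDHFD left of ND, and bars give mean ± SD (n = 3 per diet). The CD8 marker share is lower in all 3 MCDHFD libraries than in any ND library, while the macrophage, erythroid and neutrophil shares are higher.

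Of the 10 genes, 9 rose and 1 fell on MCDHFD in a limma fit over all 13430 tested genes (Benjamini-Hochberg adjusted p under 0.05). Of all tested genes 30.3% were called higher and 28.1% lower. The median log2 fold change of the 10 was 0.79, against 0.0038 over all tested genes. Because the 10 were chosen with earlier results of these data known, these comparisons describe them and are no independent test. Together, 58.4% of all tested genes were called. Libraries of the diets did not overlap in 9 of the 10, with 8 higher and 1 lower, against 33.2% and 32.3% of all tested genes (65.4% in either direction). The exception was Gpx1. The changes ran from a log2 fold change of -0.20 for Keap1 to 2.41 for Gsr.

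**Figure D2:**
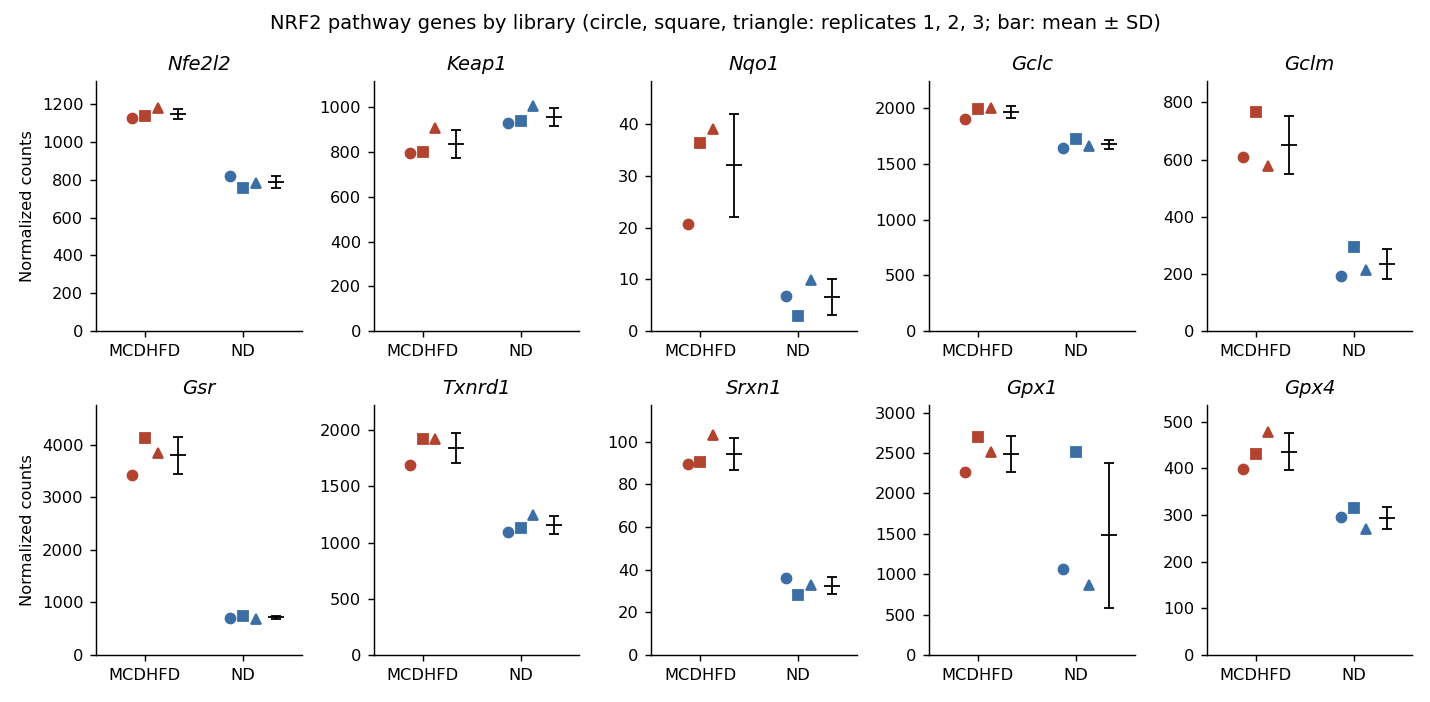
Normalized counts of each of the 10 genes (linear axes from 0, one scale per gene). Points are the libraries, MCDHFD left of ND, and bars give mean ± SD (n = 3 per diet). Gsr shows the widest gap, Keap1 alone lies lower on MCDHFD, and ND replicate 2 of Gpx1, at 2515.7, lies among the MCDHFD libraries.

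Nfe2l2 itself rose modestly and with little spread. Its normalized counts were 1126.6, 1138.1 and 1180.1 in the MCDHFD libraries and 822.3, 757.8 and 780.9 in the ND libraries. Every MCDHFD library was above every ND library, and the difference was 0.54 on the log2 scale (SE 0.06, limma adjusted p = 6.60e-05). Keap1, the inhibitor, had 794.3, 799 and 904.9 normalized counts in the MCDHFD libraries, against 928, 937.8 and 1002.6 in the ND libraries. All 3 MCDHFD libraries were lower, by a small margin. The difference for Keap1 was -0.20 on the log2 scale (SE 0.07, limma adjusted p = 0.039).

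The call of Keap1 was not stable. It was lost without MCDHFD replicate 1 (log2 fold change -0.17, limma adjusted p = 0.1), MCDHFD replicate 2 (-0.17, 0.111), ND replicate 1 (-0.22, 0.054), ND replicate 2 (-0.21, 0.0704) or ND replicate 3 (-0.17, 0.128), and in count tests of 5 libraries (edgeR adjusted p = 0.117, DESeq2 adjusted p = 0.19). The ratio of Nfe2l2 to Keap1 does not depend on how libraries were scaled. It was 1.42, 1.42 and 1.30 in the MCDHFD libraries and 0.886, 0.808 and 0.779 in the ND libraries, with no overlap. The log2 ratio differed by 0.75 (two-sided exact permutation p = 0.1 over 20 arrangements, the smallest that 3 against 3 libraries can give).

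Glutathione is made by glutamate-cysteine ligase, whose catalytic subunit is encoded by Gclc and whose modifier subunit, which lowers feedback inhibition by glutathione, is encoded by Gclm. Gclm rose strongly and Gclc slightly. Gclm had 608, 765.6 and 578.3 normalized counts in the MCDHFD libraries, against 193.8, 293.8 and 213.8 in the ND libraries. The lowest MCDHFD library was well above the highest ND library, and the rise was 1.48 on the log2 scale (SE 0.16, limma adjusted p = 7.31e-05). Gclc had 1899.3, 1992.2 and 1999.9 normalized counts in the MCDHFD libraries and 1643.6, 1721.9 and 1659.8 in the ND libraries. The diets did not overlap for Gclc either, but the log2 fold change was 0.23 (SE 0.05, limma adjusted p = 0.00448), near 1.17-fold between the means.

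Per library, there were 0.32, 0.384 and 0.289 Gclm counts for each Gclc count on MCDHFD and 0.118, 0.171 and 0.129 on ND. The log2 ratio was higher by 1.26 (two-sided exact permutation p = 0.1, again the smallest possible). Every MCDHFD library thus held more Gclm for its Gclc than any ND library did. Gss, which encodes the synthetase that completes glutathione, averaged 294.9 ± 12.4 normalized counts on MCDHFD and 199.8 ± 24.9 on ND (SD, n = 3 each) and rose by a log2 fold change of 0.57 (limma adjusted p = 0.00245).

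**Figure D3:**
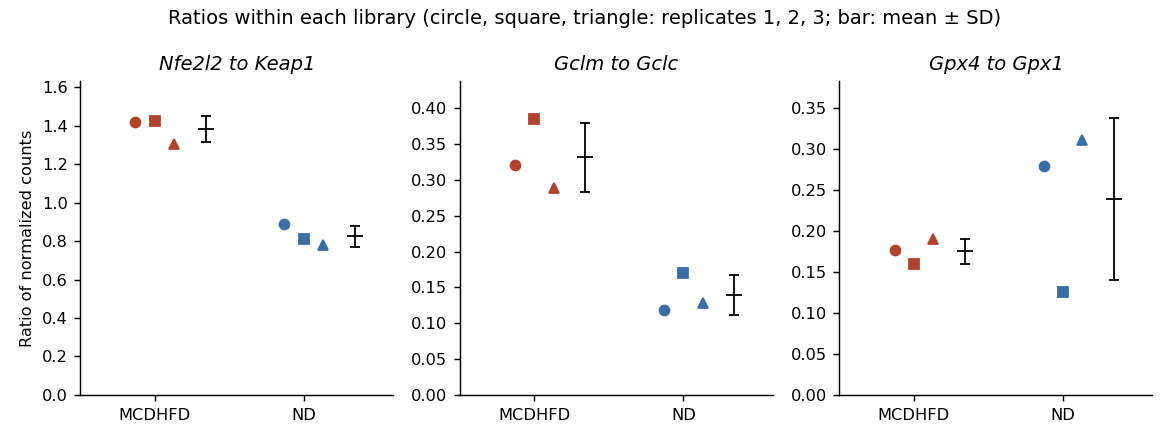
Ratio of normalized counts within each library (linear axes from 0) for 3 gene pairs, with MCDHFD left of ND, points for libraries and bars for mean ± SD (n = 3 per diet). The Nfe2l2 to Keap1 and Gclm to Gclc ratios are higher in every MCDHFD library than in any ND library, while the Gpx4 to Gpx1 ratio of ND replicate 2, 0.126, lies below all others.

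Glutathione reductase, Gsr, which uses NADPH to return oxidized glutathione to its reduced form, had the highest log2 fold change of the 10 in the limma fit, ahead of Nqo1. Gsr had 3420.2, 4126.9 and 3841.0 normalized counts in the MCDHFD libraries, against 706.8, 747.1 and 683.9 in the ND libraries. The values of each diet sat close together and the means differed 5.33-fold, or 2.41 on the log2 scale (SE 0.08, limma adjusted p = 9.17e-08). Among all tested genes, 3.54% had a higher log2 fold change. Nqo1, with far fewer counts, was above Gsr with edgeR (2.67 against 2.37), DESeq2 (2.71 against 2.38) and without ND replicate 3 (2.53 against 2.38). Txnrd1, the cytosolic thioredoxin reductase and a selenoprotein, had 1688.5, 1924.4 and 1919.4 normalized counts in the MCDHFD libraries and 1089.6, 1125.5 and 1243.1 in the ND libraries. It rose in every MCDHFD library relative to every ND library, but by less than Gsr (log2 fold change 0.68, SE 0.08, limma adjusted p = 7.31e-05).

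Srxn1 encodes sulfiredoxin, which repairs overoxidized peroxiredoxins. It was a low transcript, at 89.4, 90.4 and 102.9 normalized counts in the MCDHFD libraries and 36.2, 28.2 and 32.7 in the ND libraries. The groups were far apart relative to their spread (log2 fold change 1.52, SE 0.18, limma adjusted p = 0.00011). Nqo1, the quinone reductase most often used as a readout of NRF2, was the lowest of the 10, at 20.7, 36.4 and 39.1 normalized counts in the MCDHFD libraries and 6.85, 2.92 and 9.90 in the ND libraries. All MCDHFD libraries were above all ND libraries. The difference for Nqo1 was 2.20 on the log2 scale (SE 0.45, limma adjusted p = 0.00280), and the value varied with the processing. It was 1.79 without ND replicate 2, 2.53 without ND replicate 3, 2.67 with edgeR and 2.71 with DESeq2 on 5 libraries, and 1.34 with a pseudocount of 10 in place of 1.

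The glutathione peroxidases GPX1 and GPX4 are selenoproteins. GPX1 reduces hydrogen peroxide in the cytosol, and GPX4 reduces lipid peroxides in membranes and so protects cells from ferroptosis. Gpx4 rose, with 398.1, 431.5 and 477.6 normalized counts in the MCDHFD libraries and 295.6, 316.2 and 269.2 in the ND libraries. The diets did not overlap, and the log2 fold change was 0.57 (SE 0.10, limma adjusted p = 0.00118). Counts of Gpx4 may be affected by an annotated pseudogene, Gpx4-ps2, and the sources used here do not give how the authors' counting treated it.

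Gpx1 differed from the other 9 in that 1 ND library lay within the range of the MCDHFD libraries. It had 2259.7, 2699.8 and 2508.9 normalized counts in the MCDHFD libraries, against 1058.2, 2515.7 and 867 in the ND libraries. ND replicate 2 was above MCDHFD replicates 1 and 3, and the other ND libraries were far below all MCDHFD libraries. Gpx1 passed the test narrowly (log2 fold change 0.91, SE 0.33, limma adjusted p = 0.0397). Without ND replicate 2 the log2 fold change was 1.37 (limma adjusted p = 2.49e-05), without ND replicate 1 it was 0.75 (0.127) and without ND replicate 3 it was 0.61 (0.134). The call was also lost without MCDHFD replicate 1 (0.98, 0.0649), MCDHFD replicate 2 (0.85, 0.0993) or MCDHFD replicate 3 (0.90, 0.0876). Among 11062 genes that averaged 50 or more, ND replicate 2 was at least 2-fold above both other ND libraries in 19, of which Gpx1 is 1, and each of the other 5 libraries stood that far above its group in 13 to 21 genes. This comparison was chosen after the values of Gpx1 were seen. In ND replicate 2 the erythroid markers summed to 0.0204% and the macrophage markers to 0.397%, beside 0.0188% and 0.332% in ND replicate 1 and 0.0198% and 0.389% in ND replicate 3. The ratio of Gpx4 to Gpx1 was 0.176, 0.16 and 0.19 in the MCDHFD libraries and 0.279, 0.126 and 0.31 in the ND libraries, which overlap (two-sided exact permutation p = 0.4). The difference in the log2 ratio was -0.34, or -0.75 without ND replicate 2 and -0.10 without ND replicate 3.

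Levels of different genes were compared per kilobase of exon (union of GENCODE M21 exons on mm10). On MCDHFD Gpx1 was highest, at 1728 ± 153 normalized counts per kilobase, followed by Gsr at 1378 ± 129 and Gclc at 521.5 ± 14.9 (SD, n = 3). On ND the order was Gpx1 at 1027 ± 626, Gclc at 444.8 ± 10.96 and Gsr at 258.8 ± 11.6 (SD, n = 3). Gsr thus stood above Gclc on MCDHFD and below it on ND, with no overlap between these genes on either diet. Nfe2l2, at 302.5 ± 7.41 normalized counts per kilobase, came next on MCDHFD, ahead of Txnrd1 (260.2 ± 19.0) and Gpx4 (252.7 ± 23.2), whose ranges overlapped, and Keap1 (177.4 ± 13.3). On ND the levels of Nfe2l2 (207.3 ± 8.61) and Keap1 (203.7 ± 8.64) overlapped, and so did those of Gpx4 (170.3 ± 13.6) and Txnrd1 (162.7 ± 11.3). Gclm, Srxn1 and Nqo1 held the last 3 places on both diets, with Gclm at 103.4 ± 16.0 on MCDHFD and 37.2 ± 8.41 on ND and Nqo1 at 20.7 ± 6.40 on MCDHFD and 4.22 ± 2.25 on ND.

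Differences within the MCDHFD group ran in the same direction for nearly all of the genes. MCDHFD replicate 1 was the lowest of its group in 9 of the 10, all but Gclm. It was also the lowest in 38.1% of all tested genes and in 56.2% of the genes called higher on MCDHFD. In that library the macrophage markers summed to 1.44%, against 1.73% and 1.72% in MCDHFD replicates 2 and 3. Erythroid markers summed to 0.107%, against 0.18% and 0.172%, and CD8 T cell markers to 0.316%, against 0.277% and 0.279%. No such order held in the ND group, where 4 of the 10 genes were lowest in ND replicate 1, 3 in ND replicate 2 and 3 in ND replicate 3.

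In the genome (mm10, GENCODE M21) all 10 are protein-coding. Nfe2l2 (ENSMUSG00000015839) spans 75675513 to 75704641 on the minus strand of chromosome 2, and Keap1 (ENSMUSG00000003308) spans 21229730 to 21239361 on the minus strand of chromosome 9. Gsr (ENSMUSG00000031584) spans 33652523 to 33698163 on the plus strand of chromosome 8. Gclm (ENSMUSG00000028124) spans 122245557 to 122270732 on the plus strand of chromosome 3. Gpx1 (ENSMUSG00000063856) spans 108338903 to 108340343 on the plus strand of chromosome 9. Gpx1, Gpx4, Gclc, Nqo1 and Srxn1 overlap no other annotated gene. Nfe2l2 overlaps the snRNA gene Gm24996 and Gsr the snoRNA gene Gm24727, each on its own strand. Keap1 overlaps the antisense gene Gm16754, and Gclm overlaps the opposite-strand transcript Gm17494 and the pseudogene Gm6061. Txnrd1 overlaps Eid3 on its own strand and Gm38560 and Gm47073 on the opposite strand. The strand setting of the authors' counting is not given, so reads of such partners cannot be told apart.

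Genes around the pathway came from 7 lists, also chosen with earlier results of these data known. The lists held 102 genes, of which 94 were tested. Of these 49 rose and 20 fell (30.3% and 28.1% of all tested genes), with a median log2 fold change of 0.27. Of 24 tested NRF2-induced genes other than the 10, 21 rose and 1 fell (median log2 fold change 1.13). Hmox1, the haem-degrading enzyme, averaged 63016 ± 8499 normalized counts on MCDHFD and 10278 ± 1326 on ND (SD, n = 3 each), a log2 fold change of 2.61. Mgst1, a membrane-bound glutathione transferase, averaged 1192.7 ± 157 on MCDHFD and 92.2 ± 12.1 on ND (log2 fold change 3.68), and Slc48a1, a haem transporter of endolysosomes, 4484.8 ± 348 on MCDHFD and 981.5 ± 36.3 on ND (log2 fold change 2.19). Hmox1 and Slc48a1 are abundant in macrophages that recycle red cells, whose markers rose in the same libraries, and their part was not tested.

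Of 14 tested regulators and partners of NRF2, 3 rose and 4 fell (median log2 fold change -0.05), beside 30.3% and 28.1% of all tested genes. With the libraries scaled to equal CD8 markers 11 rose. That scaling moves the median of all tested genes to 1.07 by construction, so values under it are no check of single genes. Mafg, a small MAF partner, rose to 1119.4 ± 35.0 normalized counts on MCDHFD, against 657.7 ± 88.4 on ND. Bach2, a repressor that binds the same elements and restrains effector differentiation of T cells, fell to 1248.4 ± 245 on MCDHFD, against 2354.2 ± 646 on ND (log2 fold change -0.90, limma adjusted p = 0.00435), and turned to 0.18 (limma adjusted p = 0.439) with equal CD8 markers. Btrc, an F-box protein that can mark NRF2 for degradation, fell by 0.85 on the log2 scale and turned to 0.22 (limma adjusted p = 0.0565) under that scaling.

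Genes of glutathione synthesis, use and turnover were split, with 16 of 29 higher and 7 lower (median log2 fold change 0.46). For this and the next list, the shares of all tested genes were 30.3% higher and 28.1% lower. Gpx3, the secreted peroxidase, had 278.6, 293.9 and 107.4 normalized counts in the MCDHFD libraries and 13.7, 13.6 and 18.8 in the ND libraries. Gsto1, an omega-class glutathione transferase, averaged 1348.3 ± 116 on MCDHFD and 335.2 ± 16.1 on ND. Mgst1, given above, belongs to this list too. The largest fall of the list was that of Mgst2, which averaged 535 ± 20.2 on MCDHFD and 1091.5 ± 81.6 on ND (log2 fold change -1.03). In the thioredoxin and peroxiredoxin system 10 of 19 rose and 3 fell (median 0.39). Txn1, thioredoxin itself, averaged 2758.0 ± 348 on MCDHFD and 873.6 ± 18.6 on ND (log2 fold change 1.65), more than its reductase Txnrd1 (0.68). Prdx4, the peroxiredoxin of the endoplasmic reticulum, and Msrb1, a selenoprotein that reduces oxidized methionine, rose by log2 fold changes of 1.90 and 1.73. Nxn had the largest fall of this list (log2 fold change -0.97).

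The counts of the next lists stand beside 30.3% higher and 28.1% lower among all tested genes. Genes listed under cytosolic NADPH supply, not all of which make NADPH themselves, rose in 5 of 6 tested (median log2 fold change 0.81). The exception, Pgls, averaged 609.1 ± 221 on MCDHFD and 631.4 ± 122 on ND. Idh1, the cytosolic isocitrate dehydrogenase, averaged 1687.6 ± 266 on MCDHFD and 307 ± 30.8 on ND (log2 fold change 2.45), a change about the size of that of Gsr. G6pdx, which starts the pentose phosphate pathway, rose by 1.06 and Taldo1, transaldolase, by 0.94. Genes that make selenoproteins had a median log2 fold change of -0.23, with 2 of 9 higher and 4 lower. The number higher was 1 without MCDHFD replicate 2, 0 without MCDHFD replicate 3, 1 without ND replicate 1 and 1 without ND replicate 3 (limma, 2 at an unadjusted p under 0.05 in each). It was also 0 with quantile scaling (limma, 1 unadjusted), edgeR (2 unadjusted) and DESeq2 (1 unadjusted). The number lower was 2 without MCDHFD replicate 2 or ND replicate 3 and with edgeR, 3 with DESeq2 and 5 with quantile scaling. Scly, selenocysteine lyase, averaged 325.6 ± 22.2 on MCDHFD and 419.4 ± 26.3 on ND (log2 fold change -0.36, limma adjusted p = 0.00706), and turned to 0.70 with equal CD8 markers. Sepsecs, which completes selenocysteine on its tRNA, averaged 299.4 ± 123 on MCDHFD and 471.9 ± 30.7 on ND. The call of Sepsecs was lost without MCDHFD replicate 2 (-0.61), MCDHFD replicate 3 (-0.53), ND replicate 2 (-0.68) or ND replicate 3 (-0.72), and with edgeR (-0.66). Eefsec, the selenocysteine elongation factor, averaged 433.9 ± 36.4 on MCDHFD and 523 ± 36.7 on ND (log2 fold change -0.27). The call of Eefsec was lost without MCDHFD replicate 1 or 2 or ND replicate 1 or 3, and with library quality weights, edgeR or DESeq2. Of 4 tested superoxide and peroxide enzyme genes 2 rose and 1 fell. Superoxide dismutases Sod2 (log2 fold change 0.39) and Sod1 (0.34) rose. Ccs, the copper chaperone of SOD1, averaged 213.1 ± 20.2 on MCDHFD and 270.8 ± 20.9 on ND (log2 fold change -0.35), and its call was lost without MCDHFD replicate 3 (-0.28), ND replicate 1 (-0.30) or ND replicate 2 (-0.34). Sepsecs, Eefsec and Ccs turned to 0.34, 0.80 and 0.72 with equal CD8 markers. By the construction of that scaling, 86 of the 94 genes were then called higher and 0 lower. Catalase, Cat, averaged 1808.1 ± 140 on MCDHFD and 1721.3 ± 80.9 on ND and did not pass (limma adjusted p = 0.425).

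**Figure D4:**
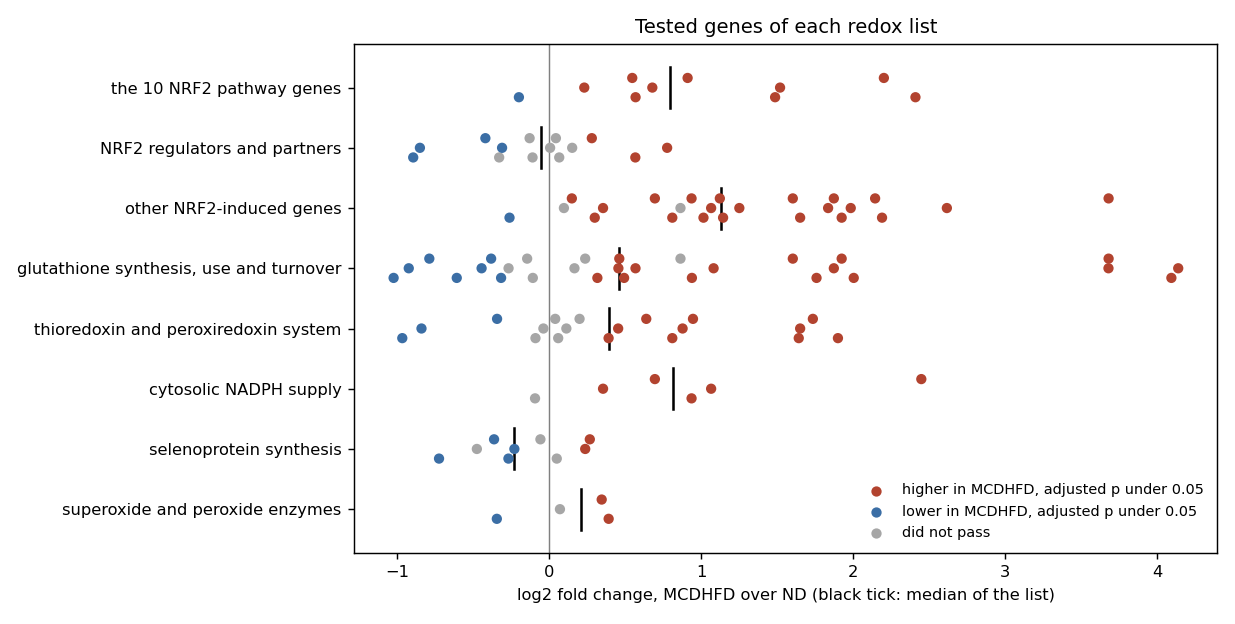
Log2 fold change, MCDHFD over ND, of every tested gene in each redox list, spread vertically for legibility. Red marks genes higher and blue genes lower on MCDHFD at a limma adjusted p under 0.05, grey marks the rest, and black ticks are medians. NRF2-induced genes lie mostly to the right (median 1.13). Regulators lie on both sides of 0 (median -0.05), and selenoprotein synthesis genes lie more to the left (median -0.23).

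The likeness of other genes to Nfe2l2 was measured over the 6 libraries. Among 10483 other genes that averaged 50 or more, leaving out unnamed genes and those with Gm or Rik symbols, the nearest by Euclidean distance of centred log2 values were Mgrn1, a ubiquitin ligase (distance 0.0677), Slc35b1, a transporter of the endoplasmic reticulum (0.0695), and Atp13a3, a transport ATPase (0.07). Of all tested genes, 21.3% had a higher log2 fold change than Nfe2l2.

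The deposited scaling sets the level against which these changes are read. With every library scaled to an equal mean of the CD8 T cell markers, the median change over all tested genes moved to 1.07 (log2), and 11312 genes were higher and 423 lower, in place of 4065 and 3772. That scaling adds about the same amount to every gene, so it moves the reference level and is no check of single genes. All 10 genes were then called higher, Keap1 included (log2 fold change 0.87, limma adjusted p = 1.75e-05). Relative to the new median, Keap1 lay at -0.20 and Gclc at 0.23, while Gsr lay at 2.41, Gclm at 1.48, Nfe2l2 at 0.55 and Gpx4 at 0.57.

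**Figure D5:**
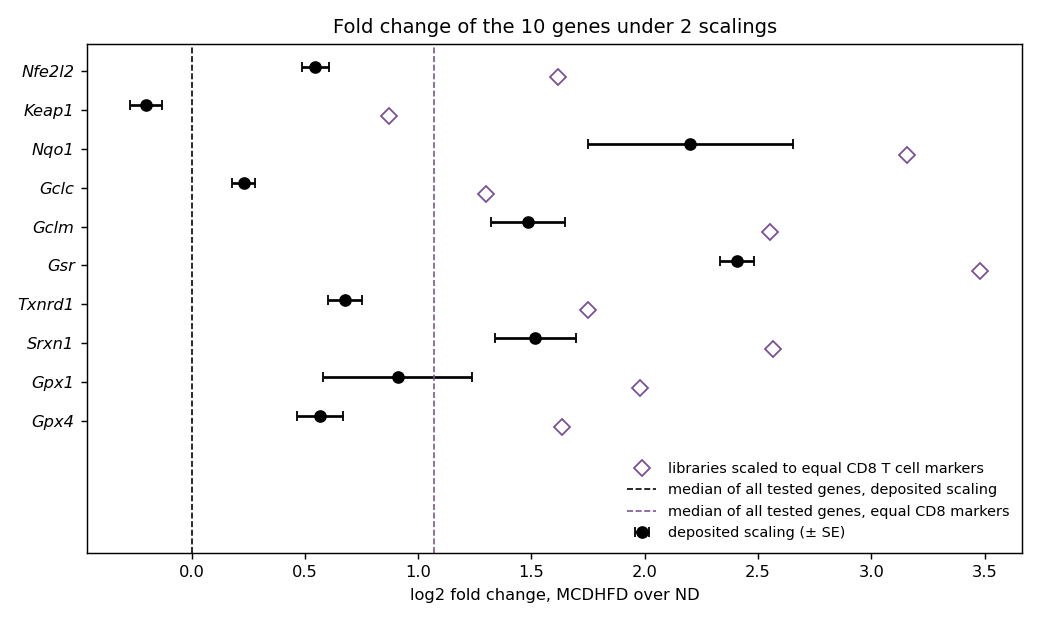
Log2 fold change, MCDHFD over ND, of the 10 genes with the deposited scaling (black circles, ± SE of the limma fit, n = 3 per diet) and with libraries scaled to equal CD8 T cell markers (open diamonds). Dashed lines are the medians of all tested genes under each scaling, 0.0038 and 1.07. All 10 genes and the median move to the right together under the second scaling, by construction, and Keap1 moves from -0.20 to 0.87.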

How the data were processed

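Total RNA of splenic CD8+ T cells was sequenced after library preparation with a kit for whole RNA or for mRNA. The labels' protocols do not tie a kit to a library. The deposited signal is a table of normalized counts, read counts that the authors divided by 1 size factor per library, as the values show: in 5 libraries 100% of them were whole multiples of the smallest value (tolerance 0.01). The smallest value of ND replicate 3 lies near 1, but so do those of ND replicate 1 (0.9789) and ND replicate 2 (0.9728), which were turned back. Leaving ND replicate 3 out was thus a choice that its values did not require. It was not turned back into reads and is missing from the count tests. The build is mm10, per the submitters' processing notes, and no source used here names the aligner or annotation. Symbols were matched for 19202 of 19323 genes.

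The 13430 genes that averaged 10 or more normalized counts were tested on log2(value + 1) with limma 3.58.1 (R 4.3.3, intensity trend, diet as the only term), and p-values were adjusted over all of them. That scale understates the fold changes of low genes. Ratios were tested by exact permutation. Members and lists were chosen with earlier results of these data known. Named genes were the 10, up to 3 passing genes per list by size of change at a mean of at least 50, marker genes and those nearest to Nfe2l2 (32 in all, of which several markers are not printed). Gss, Pgls, Cat, Mgst2 and Nxn were added after their values were seen. Alternatives were other pseudocounts, filters, scalings and weights, a replicate block, each library left out, and edgeR 4.0.16 and DESeq2 1.42.0 on recovered reads of 5 libraries. The procedure was tested on simulated data in which few genes changed, as many up as down. Those data did not hold the shift in markers seen here. The 4 same-diet pairs among those 5 libraries differed by more than sampling noise (chi-square over degrees of freedom 6.44 to 12.35), and ND replicate 3 was not compared in this way.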

Additional observations from a re-analysis of the deposited data

How the results depend on the processing

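Of 168 fold changes of the 10 genes under 17 alternatives, 149 kept their direction and side of the threshold, 18 lost the threshold and 1 reversed. Those that changed were all of Keap1 or Gpx1. With libraries scaled to equal CD8 markers, 11312 genes were higher and 423 lower, and 86 of the other pathway genes were higher and 0 lower (0 also at an unadjusted p under 0.05), the construction of that scaling. Keap1 was then 0.87 (log2), Bach2 0.18, Btrc 0.22, Sepsecs 0.34, Scly 0.70, Eefsec 0.80, Ccs 0.72 and Cd3e 0.0745, each against a fall in the deposited scaling. Cd3e is itself among the CD8 markers that set this scaling. Keap1 lost the threshold with no filter on low values (-0.20, limma adjusted p = 0.0509), library quality weights (-0.18, 0.0546), edgeR (-0.17, 0.117) and DESeq2 (-0.17, 0.19), and ran from -0.26 to -0.17 with each library left out. The number of the 10 genes called lower was therefore 0 with limma under no filter, quality weights and an adjusted p under 0.01 (1 at an unadjusted p under 0.05), 0 with edgeR and DESeq2 and under equal CD8 markers (0 unadjusted), and 0 to 1 with each library left out. Gpx1 lost the threshold with quantile scaling (0.85, limma adjusted p = 0.0518), quality weights (0.82, 0.0761), edgeR (0.47, 0.224) and DESeq2 (0.47, 0.412), and ran from 0.61 to 1.37 with each library left out. The cause was not tested, beyond ND replicate 3, which the count tests lack. Nqo1 and Srxn1 have no value at a mean of at least 100. Fits with the replicate number as a block called the same number of the 10 genes, 9 higher and 1 lower, and 4010 genes higher and 3697 lower in all. Deviations of same-numbered libraries correlated at 0.04, 0.06 and 0.01 across genes. Although 5 of 6 libraries correlated best with their own number, these correlations were small, and the numbers were not taken as pairs. Depth limits Nqo1 most, with 2.92 to 39.1 normalized counts per library.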
